A study of Mus musculus with 18 samples.

Results

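The genes described here encode the SR proteins and the heterogeneous nuclear ribonucleoproteins (hnRNPs), the large protein families that bind pre-mRNA and steer splice site choice, together with PTB proteins, PCBP proteins and the U2AF subunits. They were chosen by symbol: Srsf followed by a number, Tra2a, Tra2b, every Hnrnp gene, Ptbp1 to Ptbp3, Pcbp1, Pcbp2, U2af1 and U2af2. Reads fell on 41 of these genes, and 36 of them had reads in all 18 libraries, of 7794 genes in the series that did. A test was possible for 34 of the 36, in which at least 1 transcript by itself had a read in every library, out of 6929 such genes. The 34 are 10 SR genes, 18 hnRNP genes, 4 PTB and PCBP genes and 2 U2AF genes.

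The cells were MIN6, a mouse insulinoma line used as a model of pancreatic β-cells. They received 200 µM cyclopiazonic acid (CPA), an inhibitor of the endoplasmic reticulum calcium pump that brings on ER stress, for 1 h (CPA1, acute) or 18 h (CPA18, chronic), and control cells are labelled as given DMSO, the vehicle, for 18 h, although the study elsewhere calls them untreated. By these labels CPA1 had no vehicle control of its own duration. Poly(A)-selected mRNA-seq and Ribo-seq, which counts ribosome-protected fragments, were made from each condition in 3 independent experiments, which gives 9 libraries per assay. Below, 3 values in a row for 1 gene or gene set in 1 condition belong to experiments 1, 2 and 3. Other rows of 3 values follow the genes, lists or comparisons named with them.

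SR proteins carry an RNA recognition motif and a tail rich in arginine and serine; they bind exonic enhancers and recruit U1 snRNP and U2AF to nearby splice sites, and many also work in mRNA export and translation. hnRNPs coat nascent transcripts and often oppose SR proteins, and PTB proteins repress exons by binding pyrimidine-rich tracts. Many genes of both families keep their own level in check through exons that carry a premature stop codon, whose inclusion sends the mRNA to nonsense-mediated decay.

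Library totals ran from 520960 to 4755030 reads in mRNA-seq and from 168129 to 1083297 in Ribo-seq, with CPA18 Ribo-seq the shallowest group at 168129 to 553842. Ins1 and Ins2 together took 6.6 to 20.9% of control mRNA-seq reads and 1.44 to 5.06% at CPA18, and Lars2 took between 4.75 and 54.8% of an mRNA-seq library. All 12 β-cell markers looked at had reads in every control library of both assays, with summed levels of 9.63e+04 to 2.66e+05 RPM (reads scaled to the same library total) in control mRNA-seq against 2.91e+04 to 8.47e+04 at CPA18. The 5 α-cell markers summed to 1.18e+03 to 3.24e+03 RPM in control mRNA-seq and 184 to 497 at CPA18, while those of δ, PP, fibroblast, macrophage, acinar and endothelial cells each summed to at most 13.4 RPM in any library. A fit with Ins1, Ins2 and Lars2 taken out of the library totals was also made. For mRNA-seq at CPA18 against control it moved the median log2 fold change over all genes from 0.38 to 0.13. Over the 34 genes it moved from 0.52 to 0.30, with 14 higher and 4 lower in either fit (edgeR). Called genes were then 33.6% of all genes. The part of the other shifts in the results below was not tested. In bulk lysates a change in the share of cells of a kind and a change in RNA per cell cannot be told apart.

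In control cells Pcbp1, a poly(C)-binding protein, stood highest of the 34 genes per transcript length in 2 of the 3 mRNA-seq libraries and in all 3 Ribo-seq libraries. Its level in RPKM (RPM per kilobase of transcript) was 158, 196 and 250 in mRNA-seq and 348, 343 and 318 in Ribo-seq. At the low end was Hnrnpr, for which only 1 of 5 transcripts entered the sums, with 0.244, 0.232 and 0.0528 RPKM in mRNA-seq. The median of the 34 genes was 19.4, 21.7 and 16.1 RPKM in control mRNA-seq, where the median of all tested genes was 8.68, 9.52 and 9.06. In control Ribo-seq the medians were 29.2, 31.1 and 36 RPKM for the 34 and 11.3, 10.8 and 11.8 for all. Together the 34 genes took 0.248 to 0.298% of control mRNA-seq reads and 0.291 to 0.435% at CPA18, and 0.463 to 0.528% of control Ribo-seq reads against 0.572 to 0.676% at CPA18.

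After 18 h of CPA most SR genes and both U2AF genes were higher in mRNA-seq. Most hnRNP genes did not pass the test, as for most genes: 27.8% of them were called beside 34.9% of all genes. By edgeR's quasi-likelihood test with the experiment as a block and Benjamini-Hochberg adjustment over 6929 genes, 14 of the 34 rose and 4 fell. This is 52.9% of the genes called, where the share over all genes tested was 34.9% in either direction, 27% higher and 7.89% lower. Of the 10 SR genes 7 rose (Srsf1, Srsf2, Srsf3, Srsf4, Srsf6, Srsf7 and Tra2b), 1 fell (Srsf5) and 2 were not called (Srsf9 and Srsf10). Of the 18 hnRNP genes 3 rose (Hnrnpab, Hnrnpc and Hnrnpf), 2 fell (Hnrnph2 and Hnrnpu) and 13 were not called. Ptbp1, Pcbp1, U2af1 and U2af2 rose, Ptbp3 fell and Pcbp2 was not called. The median log2 fold change was 1.11 over the SR genes, 0.15 over the hnRNP genes and 0.38 over all genes.

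Because the median gene itself was higher by 0.38 on the log2 scale, the split depends on the scale. When libraries were instead centred on the median gene, 10 of the 34 rose and 5 fell, where 32% of all genes were called (14.8% higher and 17.2% lower), and over all genes the higher share of calls went from 77.4 to 46.2%. Centred in this way, 6 SR genes rose and Srsf5 fell, Srsf7 having an adjusted p of 0.0533, and of the hnRNP genes Hnrnpab rose while Hnrnph2, Hnrnpm and Hnrnpu fell. Without the experiment as a block none of the 34 was called in mRNA-seq (edgeR), the lowest adjusted p being 0.0765 for Tra2b. In all, 137 genes (1.98%) were called in that fit. Its unadjusted p was under 0.05 for 11 of the 34 and for 1338 of the 6929 genes.

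**Figure D1:**
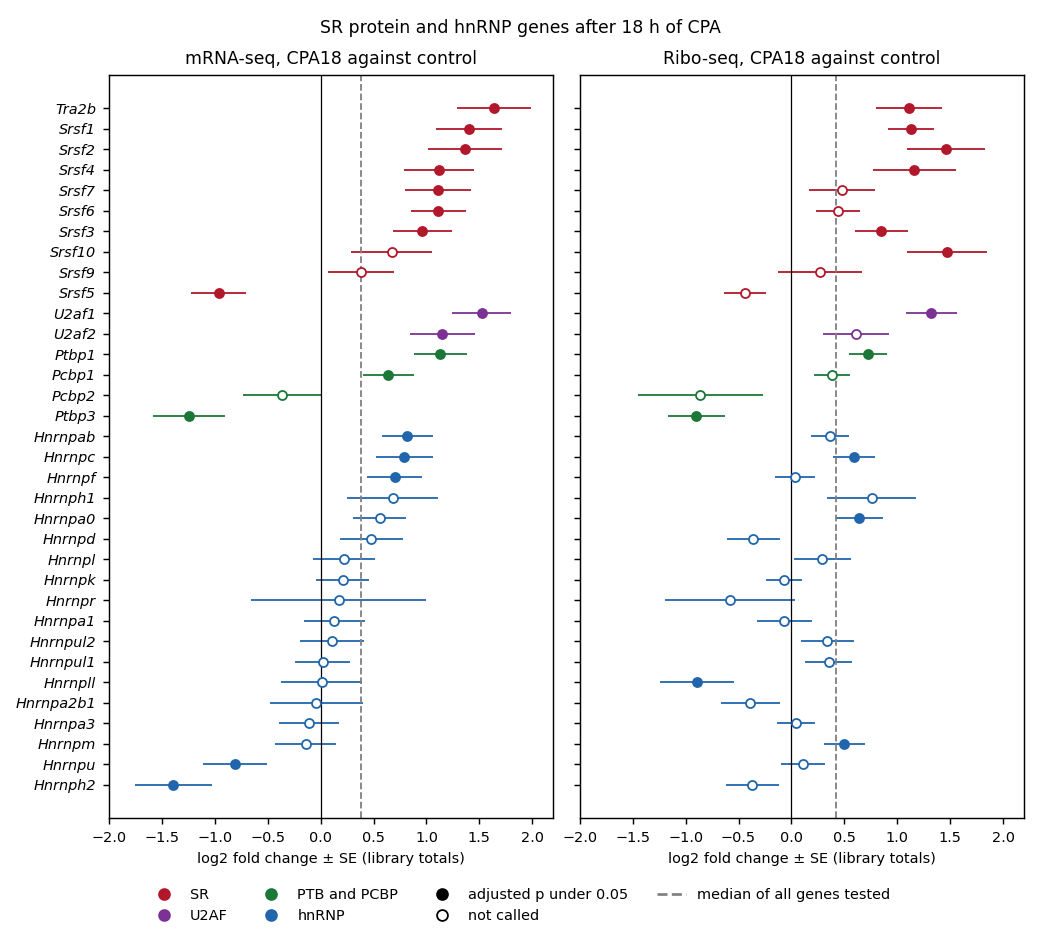
Log2 fold change of CPA18 against control for each of the 34 genes, in mRNA-seq (left) and Ribo-seq (right); points are edgeR estimates on library totals, bars are the SE, filled points have an adjusted p under 0.05, colours mark the gene group and the dashed line is the median of all genes tested (0.38 and 0.42). Of the 10 SR genes 7 lie above 0 with filled points in mRNA-seq and 6 in Ribo-seq, and Srsf5 lies below 0 in both panels.

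Tra2b, a splicing activator of the SR-like group, showed the largest rise among the 34 in mRNA-seq. Its level was 3.72, 4.58 and 2.35 RPKM in control cells and 9.55, 10.7 and 11.4 RPKM at CPA18, with 5.09, 6.97 and 7.51 RPKM at CPA1. The 3 groups did not overlap. The log2 fold change of CPA18 against control was 1.64 ± 0.35 (SE, adjusted p = 6.95e-05, edgeR), and without experiment 3 it was 1.26 with an adjusted p of 0.0668. In Ribo-seq Tra2b went from 9.51, 8.18 and 10.6 RPKM to 13.4, 27.9 and 20.6 RPKM, again without overlap, a log2 fold change of 1.11 ± 0.31 (adjusted p = 0.00362, edgeR). Without experiment 2 the footprint change was 0.80 with an adjusted p of 0.137.

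Srsf1, the founding SR protein, rose in both assays. Control mRNA levels were 8.41, 3.88 and 3.05 RPKM and CPA18 levels 15, 11.8 and 9.91 RPKM, a log2 fold change of 1.40 ± 0.31 (adjusted p = 0.00012, edgeR). Its footprints went from 17.4, 18.4 and 17.6 RPKM to 52.5, 41.5 and 28.7 RPKM, a log2 fold change of 1.13 ± 0.22 (adjusted p = 1.92e-05, edgeR). In neither assay did the control and CPA18 values overlap, and both calls held when any 1 experiment was left out.

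Srsf2, which binds exonic enhancers and also acts in transcription elongation, had 13.1, 6.71 and 6.33 RPKM in control mRNA-seq and 14.4, 22.2 and 22.5 RPKM at CPA18. In experiment 1 the gap was narrow, and the log2 fold change was 1.36 ± 0.35 (adjusted p = 0.000814, edgeR), falling to 1.06 with an adjusted p of 0.129 without experiment 3 and to 1.13 with 0.065 without experiment 2. Footprints of Srsf2 went from 10.2, 6.78 and 13.1 RPKM to 28.2, 38.8 and 22.8 RPKM, a log2 fold change of 1.46 ± 0.37 (adjusted p = 0.0011, edgeR), or 1.03 with an adjusted p of 0.107 without experiment 2.

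Srsf10, a splicing regulator of the SR group, moved more in footprints than in mRNA. Its Ribo-seq level was 6.38, 3.84 and 8.26 RPKM in control cells and 26.8, 14.3 and 15 RPKM at CPA18, without overlap. The log2 fold change was 1.47 ± 0.38 in Ribo-seq (adjusted p = 0.00117, edgeR) and 0.67 ± 0.38 in mRNA-seq (adjusted p = 0.162, edgeR), where the control values spread from 1.6 to 8.94 RPKM. The difference between the assays, tested as an interaction, was 0.82 ± 0.56 on the log2 scale and was not called (adjusted p = 0.676, edgeR).

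Srsf4 footprints went from 6.69, 5.05 and 8.33 RPKM to 23.3, 10.5 and 15 RPKM, a log2 fold change of 1.16 ± 0.39 (adjusted p = 0.0152, edgeR). Its mRNA rose by 1.12 ± 0.33 on the log2 scale (adjusted p = 0.00498, edgeR). The footprint call was lost without experiment 1 or 2 and the mRNA call without experiment 3. For Srsf3, the smallest classical SR protein, the log2 fold changes were 0.96 ± 0.28 in mRNA-seq and 0.85 ± 0.25 in Ribo-seq, with adjusted p of 0.00398 and 0.00475 (edgeR), lost without experiment 3 and without experiment 1. Srsf6 and Srsf7 each rose by 1.11 in mRNA-seq, calls lost without experiment 3 and without experiment 2, while their footprint changes of 0.44 ± 0.21 and 0.48 ± 0.31 missed the threshold with adjusted p of 0.087 and 0.245 (edgeR). Srsf9 was not called in either assay, with log2 fold changes of 0.38 ± 0.31 and 0.27 ± 0.40.

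Srsf5 was the exception among the SR genes. Its mRNA was at 100, 334 and 47 RPKM in control cells and 58.7, 106 and 46 RPKM at CPA18, so the groups overlapped and the control library of experiment 2 stood far above every other. The log2 fold change was -0.96 ± 0.26 (adjusted p = 0.00214, edgeR). Without that 1 control library it was -0.20 with an adjusted p of 0.721, and without experiment 2 altogether -0.39 with 0.326. Footprints of Srsf5 did not share this scatter, with 163, 159 and 171 RPKM in control cells and 147, 132 and 98.7 RPKM at CPA18, lower in every experiment by -0.12, -0.26 and -0.79 on the log2 scale of RPM. The footprint change of -0.44 ± 0.20 had an adjusted p of 0.0772 (edgeR), and it was -0.81 with an adjusted p of 0.000784 once libraries were centred on the median gene.

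Both subunits of U2AF, which recognises the polypyrimidine tract and the AG at the 3′ splice site, rose in mRNA-seq. U2af1, the small subunit, was at 26.4, 79.4 and 98.3 RPKM in control cells and at 102, 249 and 221 RPKM at CPA18, with control experiment 1 far below the other two. Compared within experiments it was higher in all 3, with a log2 fold change of 1.52 ± 0.28 (adjusted p = 2.88e-06, edgeR). In Ribo-seq the replicates lay close together, 88.9, 72.8 and 65.3 RPKM against 192, 177 and 183 RPKM, and the log2 fold change was 1.32 ± 0.24 (adjusted p = 4.87e-06, edgeR). These calls held without any 1 experiment and with median gene centring. U2af2, the large subunit, had 6.12, 21.6 and 22.5 RPKM in control mRNA-seq and 19.8, 43.9 and 47.4 RPKM at CPA18, groups that overlapped across experiments although each experiment showed a rise. Its log2 fold change was 1.15 ± 0.31 (adjusted p = 0.00151, edgeR; 0.0542 without experiment 3), and in Ribo-seq 0.61 ± 0.31 (adjusted p = 0.128, edgeR).

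The PTB paralogs moved in opposite directions. Ptbp1, which represses exons in most non-neuronal cells and also stabilises insulin mRNA in β-cells, went from 45.5, 62 and 68.5 RPKM to 86.8, 142 and 162 RPKM in mRNA-seq and from 88.6, 85.3 and 88.5 RPKM to 133, 146 and 149 RPKM in Ribo-seq. The log2 fold changes were 1.13 ± 0.25 and 0.72 ± 0.18 (adjusted p = 8.13e-05 and 0.000892, edgeR), and neither assay showed overlap. With median gene centring the footprint change of Ptbp1 was 0.34 with an adjusted p of 0.156.

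Ptbp3, a paralog with a similar RNA specificity, fell from 11.2, 4.87 and 2.66 RPKM to 2.34, 2.6 and 1.78 RPKM in mRNA-seq and from 21.8, 12.5 and 16.4 RPKM to 11.3, 6.46 and 8.94 RPKM in Ribo-seq. Neither assay showed overlap between control and CPA18. The log2 fold changes were -1.24 ± 0.34 and -0.90 ± 0.27 (adjusted p = 0.00171 and 0.00641, edgeR), and without experiment 1 the mRNA change was -0.79 with an adjusted p of 0.0936. Pcbp1 mRNA rose by 0.64 ± 0.24 (adjusted p = 0.0296, edgeR), but its control and CPA18 values overlapped, and the call was lost without any 1 of the 3 experiments. For Pcbp2, 1 of 4 transcripts entered the sums, and its log2 fold changes of -0.36 ± 0.37 and -0.86 ± 0.59 were not called.

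Among the hnRNP genes the largest change in mRNA-seq was a decrease. Hnrnph2, a G-run binding protein encoded on the X chromosome, was at 18.1, 13.4 and 6.95 RPKM in control cells and 2.31, 5.08 and 5.45 RPKM at CPA18, without overlap. The log2 fold change was -1.39 ± 0.36 (adjusted p = 0.000941, edgeR), but within experiment 3 it was only -0.34. Footprints were at 43.3, 38.2 and 50.8 RPKM against 46.1, 28.2 and 31.5 RPKM, with a log2 fold change of -0.37 ± 0.25 (adjusted p = 0.278, edgeR), and the difference between the assays was not called (interaction 1.01 ± 0.45, adjusted p = 0.481). Hnrnpu, which binds chromatin-associated RNA, had 18.9, 15.4 and 6.53 RPKM in control mRNA-seq and 7.47, 8.12 and 5.79 RPKM at CPA18. These groups overlapped, the log2 fold change was -0.81 ± 0.30 (adjusted p = 0.0249, edgeR), and the call was lost without any 1 experiment. Hnrnpu footprints stayed between 25.8 and 35 RPKM in both groups, with a log2 fold change of 0.11 ± 0.21.

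The hnRNP genes that rose did so by less than most SR genes that rose. Hnrnpab gained 0.82 ± 0.24, Hnrnpc, which competes with U2AF for uridine tracts, 0.79 ± 0.27 and Hnrnpf 0.70 ± 0.26 on the log2 scale in mRNA-seq, with adjusted p of 0.0043, 0.0134 and 0.0258 (edgeR). Each lost its call without experiment 3, and Hnrnpf also without experiment 1. The abundant core proteins Hnrnpa1, Hnrnpa2b1, Hnrnpa3 and Hnrnpk had mRNA log2 fold changes of 0.13 ± 0.29, -0.04 ± 0.44, -0.11 ± 0.28 and 0.21 ± 0.25, none called. Reads of Hnrnpa1 could also come from its near-identical processed copies, which the alignment to transcripts cannot separate.

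In Ribo-seq 11 of the 34 genes rose and 2 fell at CPA18, 38.2% called where 31.8% of all genes were (25.6% higher and 6.25% lower). The genes that rose were Srsf1, Srsf2, Srsf3, Srsf4, Srsf10, Tra2b, U2af1, Ptbp1, Hnrnpa0, Hnrnpc and Hnrnpm, and Ptbp3 and Hnrnpll fell. Hnrnpll, a regulator of exon choice known from lymphocytes, had 17.6, 16.6 and 20 RPKM in control Ribo-seq and 5.85, 8.07 and 12.4 RPKM at CPA18, a log2 fold change of -0.89 ± 0.35 (adjusted p = 0.0425, edgeR). That call was lost without any 1 experiment, and those of Hnrnpa0, Hnrnpc and Hnrnpm without some of them. The footprint split turned with the scale: centred on the median gene, 4 of the 34 rose (Srsf1, Srsf2, Srsf10 and U2af1) and 7 fell (Srsf5, Ptbp3, Hnrnpa2b1, Hnrnpd, Hnrnph2, Hnrnpk and Hnrnpll), and TMM factors gave the same counts. On this scale 24.1% of all genes were called (11.8% higher and 12.3% lower), so the increases among the 34 were as frequent as over all genes. The decreases, 7 of 34, were more frequent than the 12.3% over all genes. Of the 18 hnRNP genes 5 fell and 0 rose. Over all genes the higher share of calls went from 80.4 to 48.9% with centring.

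**Figure D2:**
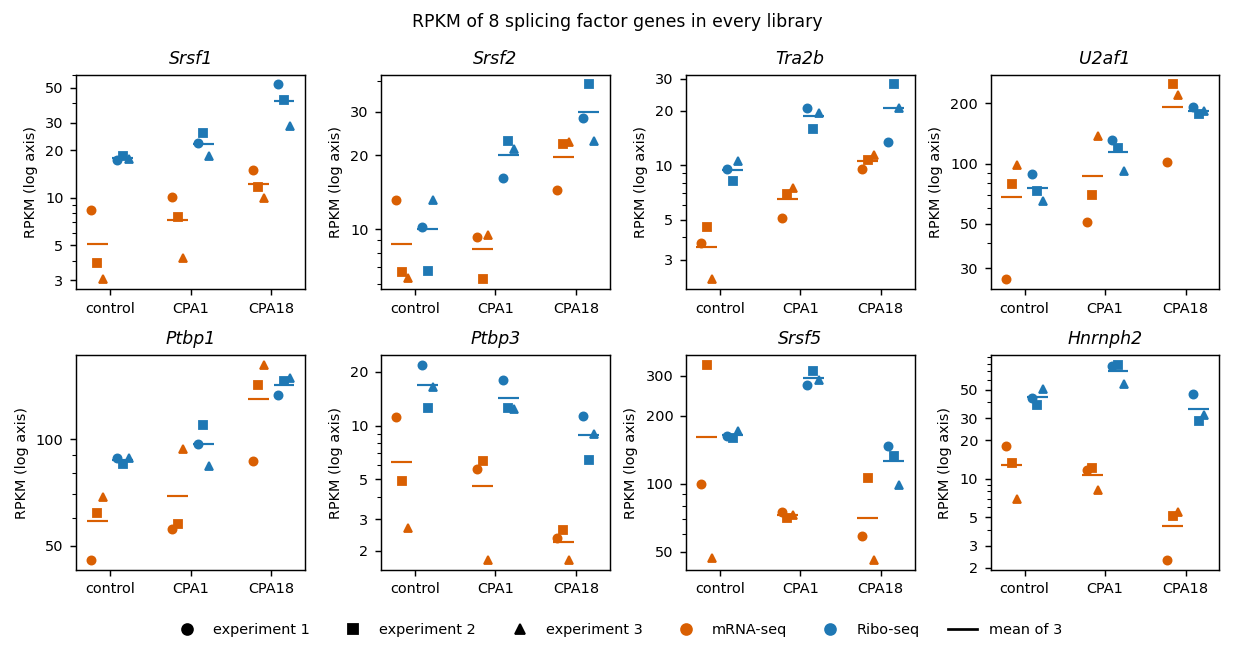
RPKM (log axis) of 8 genes in each of the 18 libraries; orange is mRNA-seq, blue is Ribo-seq, symbols mark the experiment and lines the mean of 3. Ribo-seq values of Srsf1, Srsf2, U2af1 and Ptbp1 at CPA18 all lie above control, those of Ptbp3 and Srsf5 lie below, and the control mRNA-seq value of Srsf5 in experiment 2 (334 RPKM) stands apart.

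Promoter sequences of 5 genes that rose in both assays at CPA18, and of Srsf5, are shown so that their shared motifs can be read beside these values. Each is the 150 bases before a start listed in a table of RefSeq promoters on GRCm38.p6, which is not always the outermost annotated start of the gene, and is written 5′ to 3′ on the strand of the gene; capitals mark every CCAAT box (letters CCAAT), cyclic AMP response element core (letters TGACG), GC box (letters GGGCGG) and ETS site (letters CCGGAAG) on either strand. U2af1 has 2 starts in that table, of which the one farthest upstream was used. The windows are Srsf1 chr11:88047223-88047372 on the plus strand, Srsf2 chr11:116853095-116853244 on the minus strand, Tra2b chr16:22266006-22266155 on the minus strand, U2af1 chr17:31658765-31658914 on the minus strand, Ptbp1 chr10:79854282-79854431 on the plus strand and Srsf5 chr12:80945349-80945498 on the plus strand.
Srsf1: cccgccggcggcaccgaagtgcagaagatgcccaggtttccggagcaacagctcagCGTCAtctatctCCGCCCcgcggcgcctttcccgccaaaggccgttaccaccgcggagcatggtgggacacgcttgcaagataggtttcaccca
Srsf2: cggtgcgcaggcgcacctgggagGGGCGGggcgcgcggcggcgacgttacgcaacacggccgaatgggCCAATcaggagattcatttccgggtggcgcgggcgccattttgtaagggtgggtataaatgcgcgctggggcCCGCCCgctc
Tra2b: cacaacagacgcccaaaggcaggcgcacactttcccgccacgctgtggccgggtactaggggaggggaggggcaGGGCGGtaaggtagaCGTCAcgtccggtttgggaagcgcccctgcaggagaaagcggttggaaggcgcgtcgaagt
U2af1: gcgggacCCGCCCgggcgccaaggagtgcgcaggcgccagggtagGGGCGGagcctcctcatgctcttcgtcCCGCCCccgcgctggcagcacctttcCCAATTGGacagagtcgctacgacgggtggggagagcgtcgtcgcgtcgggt
Ptbp1: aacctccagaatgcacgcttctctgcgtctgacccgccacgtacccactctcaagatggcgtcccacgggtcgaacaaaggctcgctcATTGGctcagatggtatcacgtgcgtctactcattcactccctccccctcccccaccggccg
Srsf5: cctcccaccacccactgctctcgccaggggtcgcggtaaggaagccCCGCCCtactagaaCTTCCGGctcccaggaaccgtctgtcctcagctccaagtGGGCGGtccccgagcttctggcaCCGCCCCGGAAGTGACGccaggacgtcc

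GC boxes stood in 5 of these 6 windows and not in that of Ptbp1, whose capitals mark a CCAAT box on the opposite strand. Srsf5 was the one with ETS sites, of which the one at positions -23 to -17 overlaps a GC box and adjoins a TGACG at -16 to -12. Over the 250 bases before the start, 30 of the 34 genes had an entry in the promoter table, with 43 starts. Of these 43 promoters 76.7% held a GC box, 53.5% a CCAAT box, 48.8% a TGACG and 23.3% an ETS site. The shares over all 32851 promoters in the table were 32.7, 33.8, 17.8 and 6.91%, and over the 6826 promoters of tested genes 61.6, 37, 30.3 and 15.8%. Promoters of 1 gene share sequence, and a match is a description of the letters, not of binding.

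After 1 h of CPA no member was called in mRNA-seq, where 65 genes were (0.938% of all tested, 0.505% higher and 0.433% lower). The count was also 0 by DESeq2, where 0.534% of all genes were called. In edgeR 2 of the 34 had an unadjusted p under 0.05, beside 455 of all 6929 genes. In Ribo-seq, however, 5 of the 34 genes rose and none fell, 14.7% against 6.67% of all genes (3.75% higher and 2.92% lower). With centring 3 rose and none fell, where 7.36% of all genes were called (3.39% higher and 3.97% lower), and over all genes the higher share of calls went from 56.3 to 46.1%, or from 53.8 to 96.6% in mRNA-seq at this time. They were Srsf5, Srsf7, Tra2b, Hnrnph2 and Hnrnpu. Without the block 2 of them were called, Srsf5 and Srsf7, and with limma on log2 RPKM none.

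Srsf5 footprints went from 163, 159 and 171 RPKM in control cells to 274, 315 and 288 RPKM after 1 h, well clear of the control range. The log2 fold change was 0.83 ± 0.17 (adjusted p = 0.000252, edgeR), and this was the only one of the 5 calls to hold without each experiment in turn. Srsf7, a shuttling SR protein, went from 20.9, 13.2 and 22.7 RPKM to 47.5, 41.5 and 34.5 RPKM, a log2 fold change of 1.11 ± 0.26 (adjusted p = 0.00195, edgeR; 0.90 with 0.131 without experiment 2). Tra2b footprints rose to 20.6, 15.9 and 19.5 RPKM from 9.51, 8.18 and 10.6 RPKM, a log2 fold change of 0.97 ± 0.29 (adjusted p = 0.0214, edgeR), a call lost without any 1 experiment.

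Hnrnph2 footprints were 76.2, 78 and 55.5 RPKM at CPA1 against 43.3, 38.2 and 50.8 RPKM in control cells, and those of Hnrnpu 47.8, 57.4 and 38.2 RPKM against 25.8, 33.8 and 35 RPKM. Both separated from control, by a small margin in experiment 3. The log2 fold changes were 0.65 ± 0.21 and 0.59 ± 0.19 (adjusted p = 0.046 and 0.0386, edgeR), and both calls were lost with median gene centring (0.0532 and 0.0549) and without experiment 1 or 2. The mRNA of these 5 genes gave no call at 1 h. The log2 fold changes of all 34 genes ran from -0.90 to 1.11 in Ribo-seq with a median of 0.21, beside 0.07 over all genes.

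**Figure D3:**
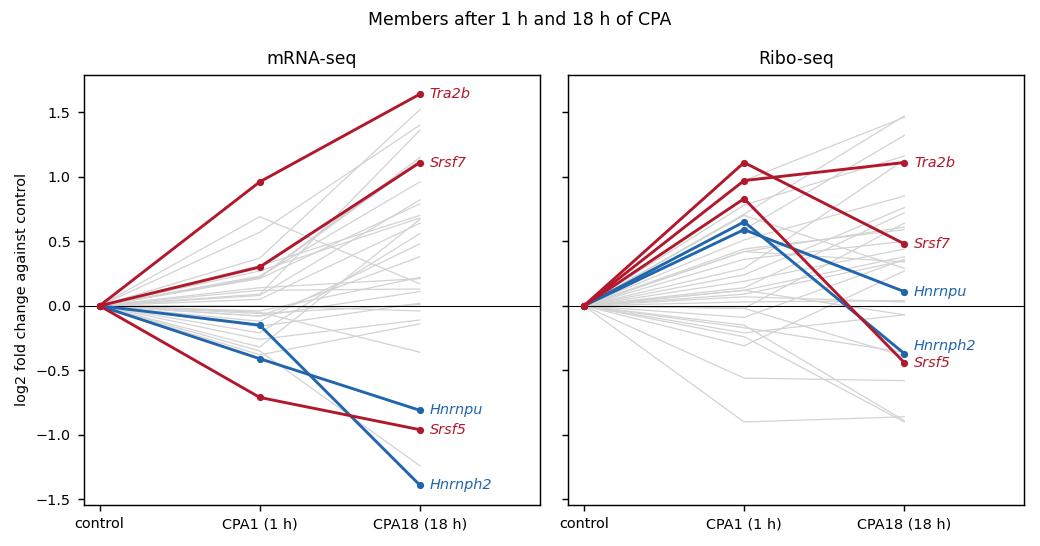
Log2 fold change against control at CPA1 and CPA18 for the 34 genes (grey) in mRNA-seq (left) and Ribo-seq (right), with the 5 genes whose footprints were called at CPA1 in colour (red SR, blue hnRNP). In Ribo-seq all 5 lie above 0 at CPA1, from 0.59 to 1.11, and Srsf5 and Hnrnph2 lie below 0 at CPA18 (-0.44 and -0.37), whereas in mRNA-seq Srsf5, Hnrnph2 and Hnrnpu lie below 0 at both times.

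Set directly against CPA1, CPA18 cells had 13 of the 34 genes higher and 2 lower in mRNA-seq, 44.1% called beside 39.6% of all genes (33.8% higher, 5.77% lower). This count sits near the background, and with median gene centring it was 3 higher and 4 lower where 31.4% of all genes were called (15.9% higher and 15.4% lower), while the higher share over all genes went from 85.4 to 50.8%. Without the block no member was called, and 2.16% of all genes were (edgeR). The unadjusted p of that fit was under 0.05 for 2 of the 34 and for 1464 of all 6929 genes. Srsf2 led, with 9.29, 6.25 and 9.44 RPKM at CPA1 and 14.4, 22.2 and 22.5 RPKM at CPA18, a log2 fold change of 1.27 ± 0.33 (adjusted p = 0.000938, edgeR). U2af1 followed with 51, 69.6 and 138 RPKM against 102, 249 and 221 RPKM, higher within each experiment although the groups overlapped, a log2 fold change of 1.16 ± 0.27 (adjusted p = 0.000258, edgeR). U2af1 and Ptbp1 were the calls that held without any 1 experiment.

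Srsf10, U2af2, Ptbp1 and Srsf4 gained 0.99 ± 0.38, 0.93 ± 0.30, 0.91 ± 0.24 and 0.90 ± 0.32 on the log2 scale of mRNA-seq between CPA1 and CPA18. Their CPA1 levels were 3.99, 3.32 and 2.77 RPKM for Srsf10, 11.7, 17.8 and 28.4 RPKM for U2af2, 55.8, 57.6 and 93.7 RPKM for Ptbp1 and 7.92, 4.36 and 12.4 RPKM for Srsf4. Of these 4 genes only Srsf10 had values clear of those at CPA18, which were 4.28, 9.7 and 5.94 RPKM. Hnrnph2 fell by 1.24 on the log2 scale (SE 0.35, adjusted p = 0.00252, edgeR) from 11.7, 12.1 and 8.2 RPKM, and Ptbp3 fell by 0.89 (SE 0.33, adjusted p = 0.0229) from 5.68, 6.35 and 1.77 RPKM.

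In Ribo-seq 4 genes were higher and 2 lower at CPA18 than at CPA1, 17.6% called beside 23.6% of all genes (18.2% higher, 5.41% lower). Srsf5 showed the clearest contrast of the 34: from 274, 315 and 288 RPKM at CPA1 its footprints dropped to 147, 132 and 98.7 RPKM, a log2 fold change of -1.26 ± 0.20 (adjusted p = 8.74e-08, edgeR). Under the alternative scalings, tests and left-out experiments it stayed between -1.60 and -1.04, called each time. Hnrnph2 dropped likewise from 76.2, 78 and 55.5 RPKM to 46.1, 28.2 and 31.5 RPKM, a log2 fold change of -1.02 ± 0.26 (adjusted p = 0.00135, edgeR; 0.0653 without experiment 2).

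Srsf1, U2af1, Hnrnpa0 and Ptbp1 were the 4 genes with higher footprints at CPA18 than at CPA1, by 0.84 ± 0.23, 0.73 ± 0.25, 0.66 ± 0.23 and 0.57 ± 0.18 on the log2 scale. Each lost its call in at least 1 left-out experiment, and with median gene centring no member was higher and 8 were lower where 19% of all genes were called (8.99% higher and 10% lower), the higher share over all genes going from 77.1 to 47.3%. U2af1 footprints separated in full, from 131, 119 and 91.9 RPKM to 192, 177 and 183 RPKM, as did those of Ptbp1, from 96.8, 110 and 84.1 RPKM to 133, 146 and 149 RPKM, and of Srsf1, from 22.3, 25.7 and 18.3 RPKM. Those of Hnrnpa0 overlapped, with 42.4, 52.3 and 52.4 RPKM and then 88.9, 49.6 and 95.1 RPKM.

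Ribosome occupancy, the footprint level divided by the mRNA level, was above the gene median for most of these genes in control cells, and no member was called in any comparison of it. The median ratio of the 34 was 1.99, 1.62 and 2.97 in control cells, where the median over all tested genes was 1.4, 1.13 and 1.19, and 20, 23 and 27 of the 34 lay above the gene median. Hnrnpa2b1 had ratios of 2.43, 10.3 and 24.9, which put it at the 79.1, 97.9 and 99.5 percentile of genes, while its mRNA ran from 1.68 to 13.8 RPKM. Hnrnpk, which binds poly(C) tracts, was steadier with 3.36, 3.99 and 5.3, and Srsf1 had 2.07, 4.73 and 5.78. At the low end were Srsf9, with 0.635, 0.404 and 0.803, and Pcbp2, with 0.577, 0.233 and 0.86.

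Tested as an interaction of assay and treatment, the occupancy of the 34 genes gave 0 calls in each of the 3 comparisons, where few genes were called at all. The shares were 0.0866% for CPA1 against control (each of them higher), 0.476% for CPA18 against control (0.462% higher and 0.0144% lower) and 0.0722% for CPA18 against CPA1 (0.0577% higher and 0.0144% lower). At an unadjusted p under 0.05 there were 3, 5 and 2 members, with no count over all genes given beside them. DESeq2 also gave 0 calls in each comparison. The median log2 change of the 34 was 0.15, -0.20 and -0.31, beside 0.16, 0.05 and -0.11 over all genes. Among the SR genes the change at CPA18 against control ran from -0.65 to 0.82.

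Srsf5 came nearest to a call. Its ratio was 1.63, 0.476 and 3.64 in control cells, 3.65, 4.47 and 3.94 at CPA1 and 2.51, 1.24 and 2.15 at CPA18. The interaction at CPA1 was 1.55 ± 0.37 on the log2 scale (adjusted p = 0.0622, edgeR). It was 2.25 with an adjusted p of 0.000125 without experiment 3, 0.62 with 0.932 without experiment 2 and 0.88 with 0.713 without the control mRNA-seq library of experiment 2, so the value rested on that library. Hnrnpu had an interaction of 1.00 ± 0.34 at CPA1 (adjusted p = 0.376, edgeR) and 0.92 ± 0.35 at CPA18 (adjusted p = 0.379), and Srsf7 one of -1.44 ± 0.44 between CPA1 and CPA18 (adjusted p = 0.406).

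**Figure D4:**
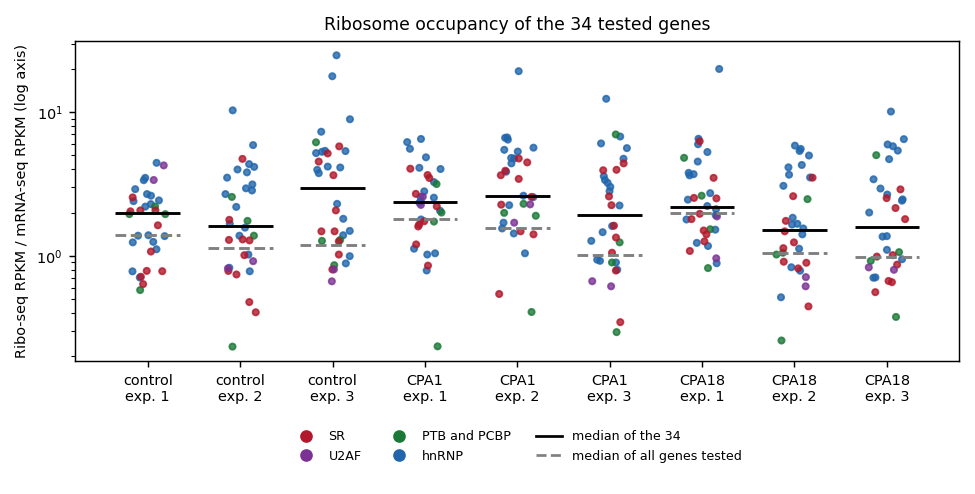
Ribosome occupancy (Ribo-seq RPKM divided by mRNA-seq RPKM, log axis) of the 34 genes in each condition and experiment; points are genes coloured by group, black lines their median and dashed lines the median of all genes tested. The black line lies above the dashed line in all 9 columns, by least at CPA18 in experiment 1 (2.17 against 2).

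The rest of the splicing machinery gives the setting for these counts. At CPA18 in mRNA-seq 6 of 10 tested genes of U1 snRNP and the Sm ring rose, 8 of 13 of U2 snRNP and SF3, 9 of 20 of the tri-snRNP and 6 of 11 of the Prp19 complex, and none of these genes fell, where 27% of all genes rose and 7.89% fell. Their median log2 fold changes were 0.68, 0.81, 0.53 and 0.83, beside 0.38 over all genes. With median gene centring the numbers that rose were 0, 1, 2 and 4, and 0, 1, 2 and 1 fell, beside 14.8% higher and 17.2% lower over all genes, so the first 3 lists had increases no more often than all genes did.

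Phf5a, a small SF3b subunit, was among those called with centring too. Its footprints went from 21.4, 20.2 and 22.4 RPKM to 105, 50.8 and 55.9 RPKM at CPA18, a log2 fold change of 1.63 ± 0.29 (adjusted p = 2.57e-06, edgeR), and its mRNA rose by 1.30 ± 0.27. Plrg1 and Syf2 of the Prp19 group rose by 1.02 ± 0.28 and 1.27 ± 0.31 in mRNA-seq, and Snrnp70, the U1 protein that contacts SR proteins, by 1.35 ± 0.37. In Ribo-seq 6 of 10, 6 of 13, 7 of 20 and 4 of 11 genes of the 4 groups were higher. In the tri-snRNP 1 gene was lower. Over all genes 25.6% were higher and 6.25% lower. The medians of the 4 groups were 0.69, 0.73, 0.37 and 0.40, beside 0.42 over all genes. With median gene centring 2, 3, 0 and 1 genes were higher and 0, 1, 2 and 1 lower, beside 11.8% and 12.3% of all genes.

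Counts for proteins that act on or beside SR proteins are given next, for CPA18 against control. The shares over all genes were 27% higher and 7.89% lower in mRNA-seq, and 25.6% and 6.25% in Ribo-seq. Of 15 tested SR-related genes, 1 rose in mRNA-seq (Luc7l, 1.01 ± 0.36) and 1 fell (Son, a large nuclear speckle protein, -0.80 ± 0.26). Their median was 0.12, beside 0.38 over all genes. Luc7l mRNA went from 5.01, 1.95 and 2.84 RPKM to 4.21, 6.13 and 7.04 RPKM, so it was lower in experiment 1 and the groups overlapped. With median gene centring its change was 0.61 with an adjusted p of 0.137 (edgeR). In Ribo-seq 3 of them rose, among them Luc7l by 2.23 ± 0.52 from 1.22, 0.216 and 0.927 RPKM to 7.18, 0.989 and 4.35 RPKM (adjusted p = 0.000369, edgeR). Of 5 tested genes for SR protein kinases and import, Clk3, a kinase that phosphorylates SR proteins, rose by 1.28 ± 0.37 in mRNA-seq and 1.77 ± 0.47 in Ribo-seq (adjusted p = 0.00365 and 0.00182, edgeR). Among 27 other splicing regulators 4 rose and 2 fell, among them Celf1, with a log2 fold change of -1.41 ± 0.35. Celf1 mRNA, like that of Srsf5, was highest in the control library of experiment 2, with 3.61, 16.3 and 2.28 RPKM in control cells and 1.29, 4.24 and 1.83 RPKM at CPA18. No test of the difference between the lists was made.

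The nonsense-mediated decay list, named here because SR genes are known targets of that pathway, had 9 of 13 tested genes higher and 1 lower in mRNA-seq at CPA18, with a median of 1.03, where 27% of all genes rose and 7.89% fell. Centred on the median gene, 7 rose and 1 fell, beside 14.8 and 17.2% of all genes. Rnps1, an exon junction protein that also activates splicing, rose by 1.11 ± 0.25 in mRNA-seq and 0.99 ± 0.20 in Ribo-seq (adjusted p = 0.000183 and 3.9e-05, edgeR). Smg5 gained 1.43 ± 0.33 in mRNA-seq. At CPA1 no gene of these lists was called in mRNA-seq, while in Ribo-seq 1 of the 5 kinase and import genes, 2 of the 15 SR-related genes and 1 of the 27 other regulators rose, beside 3.75% of all genes. Without the experiment block the mRNA changes named from these lists had adjusted p of 0.149 or more (edgeR).

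**Figure D5:**
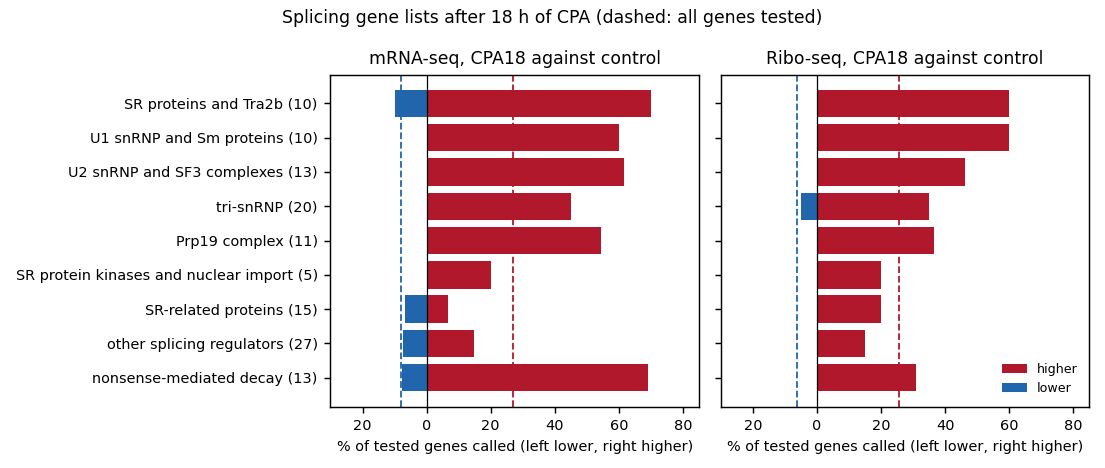
Percentage of the tested genes of each splicing list (number in brackets) called higher (red, right) or lower (blue, left) at CPA18 against control in mRNA-seq and Ribo-seq, on library totals; dashed lines are the shares over all genes tested (27 and 7.89% in mRNA-seq, 25.6 and 6.25% in Ribo-seq). SR proteins with Tra2b reach 70% higher in mRNA-seq (7 of 10) and SR-related proteins 1 of 15.

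Transcripts of the 34 genes had a median GC content of 44.1%, below the 51% of all tested genes, and it was 42.5% for the SR genes. SR genes had a median coding length of 766 bases and hnRNP genes 1.35e+03, beside 1.29e+03 over all genes. With GC content and transcript length offset in the same blocked fit, 14 of the 34 rose and 2 fell in mRNA-seq at CPA18. In Ribo-seq 11 rose and none fell, so the footprint decreases of Ptbp3 and Hnrnpll were not called in that fit. No share over all genes is given for that fit, so these counts have no background beside them. Of the calls above, 15 of 18 in mRNA-seq and 10 of 13 in Ribo-seq were kept.

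Of the 7 genes with reads that were not tested, Srsf11 and Hnrnph3 had reads in all 18 libraries only when their transcripts were added up, with as few as 1 read in a library. Just inside the limit were Hnrnpr and Pcbp2, whose counted transcripts also had 1 read in their lowest library. Hnrnph3 had 1, 6 and 2 reads in control mRNA-seq and 13, 53 and 22 at CPA18, and in a fit over all transcripts and genes without the filter its log2 fold change was 2.43 ± 0.58 (adjusted p = 0.000587, edgeR). Srsf11 had 3, 2 and 3 reads against 6, 13 and 3, and was not called in that fit. Tra2a, Ptbp2, Hnrnpdl and Hnrnpa1l2-ps2 each had reads in 17 libraries and Srsf12 in 3, with at most 2 reads, and in the same fit the first 4 were not called. Adding the transcripts left out of Srsf7, Srsf10 and Tra2b, of whose reads 58.7, 75.6 and 66.2% had been counted, gave mRNA log2 fold changes at CPA18 of 1.07, 0.57 and 1.66. Of the reads of Srsf4 70.1% had been counted, and of those of Hnrnph1 28.9%. In the fit without the filter Srsf4 stayed called at CPA18 against control in both assays. Hnrnph1, not called in the main fit, was called higher there in Ribo-seq.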

How the data were processed

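MIN6 cells were profiled by mRNA-seq and Ribo-seq in 18 libraries, 3 experiments of 3 conditions per assay. Per the methods of the study and the labels, the authors kept reads of 15 to 40 bases, aligned them with Bowtie2 to the GRCm38.p6 RNA reference and deposited, per transcript, a read count, RPM, the transcript length and RPKM; counts were used as deposited and RPKM and length were used for levels. Bowtie2 and GRCm38 are also named in the submitters' processing notes. How reads shared by isoforms were assigned is not given in the sources used here. The 2 control libraries of experiment 2 carry each other's assay in 1 label field; the title was followed. The Lars2 share was 7.19% in the one titled mRNA-seq (4.75 to 54.8% in the other mRNA-seq libraries) and 0.083% in the one titled Ribo-seq (0.363 to 3.51% in the others, so below them).

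Of 30741 transcripts, the 10163 with a read in every library were summed to 6929 genes. Counts were tested with edgeR 4.0.16 (glmQLFit, R 4.3.3), with library totals as sizes and the experiment as a block, over 9 comparisons; ribosome occupancy was the interaction of assay and treatment. SE is the fold change divided by the root of F. An adjusted p under 0.05 was called. limma 3.58.1 on log2(RPKM + 0.5 or 1) and DESeq2 1.42.0 were alternatives. The labels give the replicate number as a batch and independent experiment, so it pairs the libraries; deviations of same-numbered libraries from their group means correlated by 0.10 to 0.74 in mRNA-seq and by 0.08 to 0.20 in Ribo-seq (9 pairs each). No columns of per-sample values were left unused.

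Named genes were the members called, with values per library for up to 6 increases and 6 decreases per comparison, and up to 2 called genes per list; 1 gene that the rule names is not reported here. Members and lists were chosen with earlier results of these data known. Replicates are described as independent experiments. In the main fits the block takes out the level of each experiment, so p-values weigh a change against the spread that remains within experiments.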

Additional observations from a re-analysis of the deposited data

Results flagged for a closer look

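For 2 genes the change at CPA1 and the change at CPA18 had opposite signs in every experiment, and the direct comparison of the times passed the test. The share of all genes that meet this rule was not counted. The direct comparison alone called 39.6% of all genes in mRNA-seq and 23.6% in Ribo-seq. Srsf5 footprints changed by 0.75, 0.99 and 0.75 on the log2 scale of RPM at CPA1 and by -0.12, -0.26 and -0.79 at CPA18, and CPA18 against CPA1 gave -1.26 ± 0.20 (SE, adjusted p = 8.74e-08, edgeR quasi-likelihood test). Hnrnpa0 mRNA, which encodes an abundant hnRNP of the A group, changed by -0.22, -0.34 and -0.09 at CPA1 and by 0.30, 0.60 and 0.74 at CPA18, and CPA18 against CPA1 gave 0.77 ± 0.25 (adjusted p = 0.00847, edgeR). With libraries centred on the median gene the Hnrnpa0 value was 0.29 with an adjusted p of 0.12, and without the experiment block its adjusted p was 0.305, and without experiment 3 it was 0.141. Neither time was called against control for Hnrnpa0 mRNA (adjusted p = 0.977 at CPA1 and 0.0682 at CPA18, edgeR). The time points share their control libraries, and by the labels CPA1 had no control of its own duration.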

How the results depend on the processing

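No change named for a called gene reversed in any alternative. Counts of called members moved as follows. Where shares over all genes are given, they moved too. None is given for limma, the GC content and length offset or left-out experiments. In mRNA-seq, CPA18 against control (18 called), no replicate block gave 0, so the calls rest on the pairing by experiment; leaving out 1 experiment gave 7 to 15, with 7 without experiment 3 (14 without experiment 1, 13 without experiment 2 of the same genes), and 11 without the control library of experiment 2. In mRNA-seq, CPA18 against CPA1 (15 called), TMM and median gene centring gave 7 each, totals without Ins1, Ins2 and Lars2 gave 8, DESeq2 5, limma with pseudocount 0.5 and no filter 8 each, no replicate block 0, and left-out experiments 4 to 12. Over all genes the main fit called 39.6% there, TMM 31%, centring 31.4% and totals without Ins1, Ins2 and Lars2 30.9%. DESeq2 called 23.7% of all genes, no filter 16.8% of 16915 genes and no replicate block 2.16%. In Ribo-seq, CPA1 against control (5 called), centring and no filter gave 3 each, DESeq2 and no replicate block 2 each, limma 0 with either pseudocount, the GC content and length offset 8, and left-out experiments 1 to 5, with 1 without experiment 2. Over all genes the main fit called 6.67% there, centring 7.36%, no filter 2.62%, DESeq2 4.91% and no replicate block 3.16%. In Ribo-seq, CPA18 against control (13 called), DESeq2 gave 5, limma with pseudocount 0.5 gave 8, and left-out experiments 7 to 14. TMM and centring gave 11 each, 4 higher and 7 lower, where each called 24.1% of all genes. Of the 13 calls TMM and centring each kept 6, and DESeq2 kept 4. In Ribo-seq, CPA18 against CPA1 (6 called), limma gave 2 and 3 and left-out experiments 2 to 4. Centring called 19% of all genes there. TMM and centring gave 8 each and DESeq2 6, all of them lower. Each of these 3 settings kept 2 of the 6 calls. At CPA1 a single mRNA call appeared without experiment 3 (0 to 1 over left-out experiments), and ribosome occupancy gave 1 call, Srsf5, with no filter, with the GC offset and without experiment 3, and 0 in both other occupancy comparisons under every left-out experiment. The cause was not tested. Median centring also moved the members' median log2 fold change at CPA18 against control from 0.52 to 0.14 in mRNA-seq and from 0.35 to -0.02 in Ribo-seq. Depth limits the low genes most: Hnrnpr and Pcbp2 had single reads in some libraries, and with 3 libraries per group a missed call does not show that levels were alike.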
